A study of Mus musculus with 6 samples.

Results

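Heterotrimeric G proteins carry signals from seven-transmembrane receptors into the cell. An alpha subunit holds the guanine nucleotide, and a beta and a gamma subunit form a tight dimer that is released from it on activation. The dimer itself acts on phospholipase C beta, on adenylyl cyclases, on phosphoinositide 3-kinases and on ion channels. The beta subunit is a propeller of WD repeats, whereas the gamma subunit is a small protein that wraps around it and anchors the dimer in the membrane through a lipid added to its last cysteine. 10 genes of this family are described here, 2 beta subunits (Gnb1 and Gnb2) and 8 gamma subunits (Gngt2, Gng2, Gng4, Gng5, Gng7, Gng10, Gng11 and Gng12), out of 34745 genes in the deposited table. They were chosen by gene symbol, with the counts of both groups and the call on Gngt2 already known. Their differences between the groups are therefore given as a description, no p-value is printed for them, and the call on Gngt2 is a value by which they were chosen and not a test of them.

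The cells were MLE-12, an immortalized mouse lung epithelial line. One group of 3 libraries (replicates 1 to 3) came from cells transfected with NR4A1 overexpression plasmids, in which the open reading frame of this orphan nuclear receptor was cloned into pCMV-SPORT6. The vector control group of 3 libraries received the empty pCMV-SPORT6. Both groups were thus exposed to the plasmid backbone and to a cationic lipid reagent, each library pools transfected cells with any untransfected ones, and the time of harvest for sequencing is not given in the sources used here. The labels do not say whether the replicates were separate cultures, so p-values measure the spread between these samples, which may be technical.

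Library totals ran from 15019038 to 17574340 counts. Nr4a1 had 50660, 60093 and 68555 counts with the plasmid and 428, 510 and 463 counts with the vector. In these bulk libraries, fewer cells of a type and less RNA per cell cannot be told apart. NR4A1 overexpression replicate 2 stood apart, with 350 genes at 1 CPM (counts per 1000000 of the library, scaled by TMM factors) or more that were at least 10-fold above all other libraries, against 10 or fewer in each of those. Of 9 markers of lung epithelium, Sftpc, Sftpb, Nkx2-1, Cdh1, Krt8 and Cldn3 were counted in every library, and Epcam (at most 22 counts), Cldn4 (at most 1) and Krt18 (2 to 21 counts outside that replicate) were at or near 0. The summed level of these 9 markers was 369 to 408 CPM in the NR4A1 libraries and 416 to 451 CPM in the vector controls, and 4 of the 7 tested markers were lower in all NR4A1 libraries than in all controls, as were 805 of the 12941 genes tested (6.22%). The smallest p among these markers belonged to Nkx2-1, a lung transcription factor (log2 fold change -0.32 with a standard error, SE, of 0.103 and an adjusted p of 0.620 in the quasi-likelihood test of edgeR). The part of these differences in the values below was not tested.

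The gamma subunits fall into a pair of classes by the end of their coding sequence, which ends in a cysteine codon, a pair of further codons, a last codon and the stop codon. Where the last residue is a serine the cysteine is known to receive a farnesyl group, and where it is a leucine a geranylgeranyl group. In the GENCODE M21 transcripts (GRCm38), the last codon encodes serine in 3 of the 12 gamma subunits of mouse, Gngt2, Gng11 and Gngt1, and leucine in the other 9. The last 15 coding bases of the serine class, and of the leucine subunits with the highest levels in these cells, are shown 5′ to 3′ on the strand of the gene because they show how Gngt2 differs from the leading gamma subunits. Capitals mark the last codon before the stop.
Gngt2 (chr11:95845594-95845608, plus strand): tgtgtgctaAGCtga
Gng11 (chr6:4008146-4008160, plus strand): tgtgtcattTCAtaa
Gngt1 (chr6:3996766-3996780, plus strand): tgtgtgattTCAtag
Gng12 (chr6:67017575-67017589, plus strand): tgcatcatcTTAtag
Gng10 (chr4:59039338-59039352, plus strand): tgtgctctaCTTtga
Gng5 (chr3:146503371-146503385, plus strand): tgctcctttTTGtag

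The first question is which subunits these cells expressed at all. Levels of different genes were compared as CPM per kilobase of merged exons, because the length behind the deposited FPKM was 2.67 times the merged exon length for Gnb2 and 0.38 times that length for Gnb5. Gnb1, the most widely expressed beta subunit, had the highest level in the vector controls, with 110 ± 3.43 CPM per kb (SD, n = 3), above 97.5% of all tested genes. Gnb2 followed with 54.3 ± 10.3 CPM per kb. Gng12 was the leading gamma subunit with 28.2 ± 1.76 CPM per kb. Gng10, at 17.3 ± 2.47 CPM per kb, and Gng5, at 16.7 ± 1.84 CPM per kb, came next and did not differ beyond their spread. Gng7 had 3.53 ± 0.372 CPM per kb and Gngt2 1.35 ± 0.153 CPM per kb, so that Gngt2 was above 17.9% of the tested genes. The libraries of neighbouring genes in this order did not overlap, apart from Gng10 and Gng5. On the deposited FPKM scale the order differed, with Gng10 at 17.4 ± 2.54, Gng5 at 13.4 ± 1.54 and Gng12 at 12.4 ± 0.732 FPKM, while Gnb1, Gnb2, Gng7 and Gngt2 kept their places relative to each other.

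**Figure D1:**
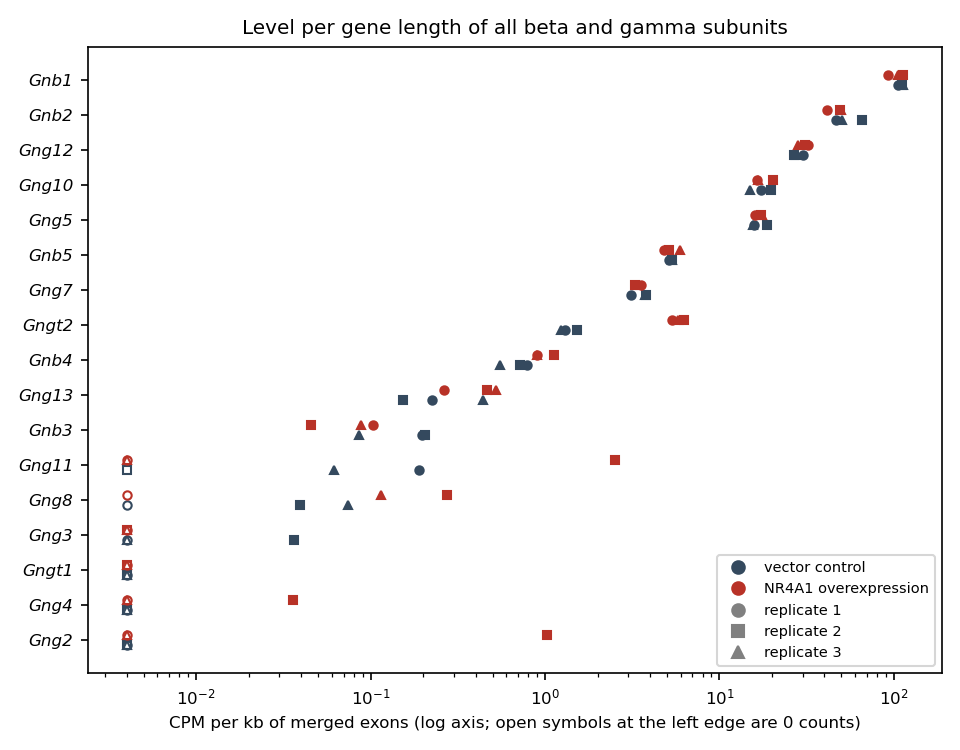
Level of the 17 beta and gamma subunits per library, as CPM per kilobase of merged exons on a log axis, with vector controls in dark blue, NR4A1 overexpression in red, replicates by symbol shape, and open symbols at the left edge for libraries at 0. Gngt2 is the only subunit in the upper part of the plot whose groups lie far apart, and the isolated red squares of Gng11 and Gng2 are NR4A1 overexpression replicate 2.

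Gngt2, known as the gamma subunit of cone transducin, which couples opsin to its phosphodiesterase in cone photoreceptors, was the member with a clear difference between the groups. It had 149, 197 and 187 counts in NR4A1 overexpression replicates 1, 2 and 3, and 42, 48 and 41 counts in vector controls 1, 2 and 3. In CPM these values were 10.1, 11.7 and 10.8 against 2.43, 2.86 and 2.32. The lowest NR4A1 library was 3.52 times the highest vector control, and NR4A1 overexpression replicate 2 lay close to the other 2 libraries of its group. The group means were 10.9 ± 0.834 and 2.54 ± 0.287 CPM (SD, n = 3 each), a 4.27-fold difference and a log2 fold change of 2.10 (SE 0.170). The coefficient of variation among replicates was 7.67% with NR4A1 and 11.3% with the vector, close to or below the 7.50% and 15.1% that counting alone gives at these counts.

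Gngt2 was the 1 gene called among the 10 members, where a gene was called at an adjusted p under 0.05 in edgeR's test if it also differed 2-fold or more. In the same comparison 22 of the 12941 tested genes (0.170%) were called, and since the members were picked with this call known, nothing is read from the share. Among the 22, Gngt2 stood at rank 13 by fold change. It was also the 1 of 7 tested members whose groups did not overlap, beside 12.9% of all tested genes. The call was lost with the replicate number as a block, at a log2 fold change of 2.10. It was also lost when NR4A1 overexpression replicate 1 or 3, or vector control 1, 2 or 3, was left out, with a log2 fold change between 2.03 and 2.19 in these 5 fits. Without NR4A1 overexpression replicate 2 it was kept, at 2.04.

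**Figure D2:**
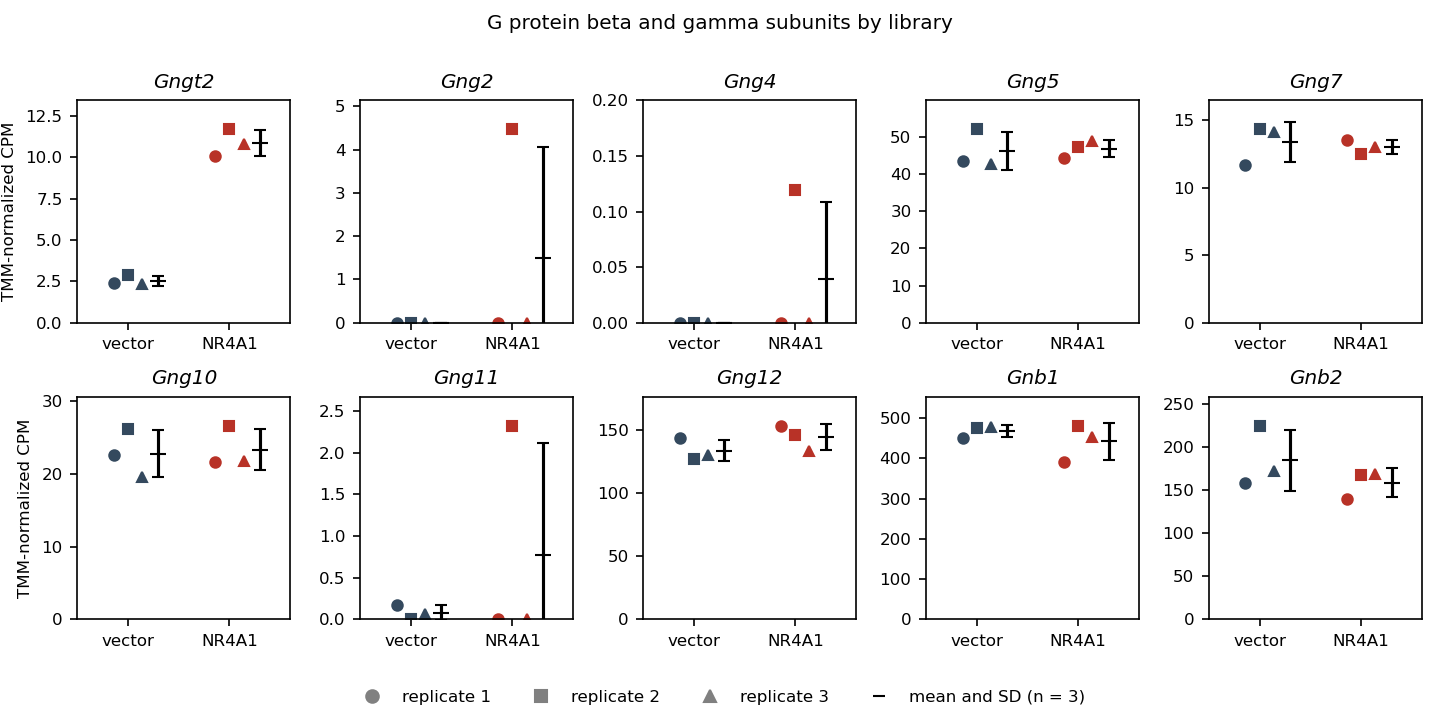
TMM-normalized CPM of each member in the 6 libraries, with the vector controls in dark blue, NR4A1 overexpression in red, replicates by symbol shape, and the mean and SD of each group of 3 in black, every axis starting at 0. Gngt2 is at 2.32 to 2.86 CPM in the vector controls and at 10.1 to 11.7 CPM with NR4A1, Gng2, Gng4 and Gng11 are highest in replicate 2 of the NR4A1 group, and the groups overlap in the other 6 members.

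Gngt2 (ENSMUSG00000038811) lies on the plus strand of chromosome 11, from 95837216 to 95845734 (GRCm38). Abi3, which encodes an adaptor of the WAVE actin-regulating complexes, lies on the opposite strand from 95830074 to 95842476, and 234 of the 1877 merged exonic bases of Gngt2 (12.5%) are also exonic in Abi3. The library kit kept the strand, but whether the counting used it is not given in the sources used here, so reads from this stretch may not be told apart. Abi3 itself had 52, 91 and 76 counts with NR4A1 and 64, 47 and 62 counts with the vector, and its groups overlapped (log2 fold change 0.41, SE 0.233, edgeR adjusted p = 0.834). Of the 7 genes of the table within 50 kb of Gngt2, 6 were tested and none was called, with an unadjusted p under 0.05 in 0 of them. Zfp652, a zinc finger gene 2101 bases upstream, had a log2 fold change of 0.00 (SE 0.189, edgeR adjusted p = 0.999), and Phospho1, a phosphatase gene 5076 bases upstream, one of -0.55 (SE 0.323, edgeR adjusted p = 0.840). On the other side, Gm11534, an antisense transcript 23420 bases away, had 8, 4 and 8 counts with NR4A1 and 15, 14 and 11 with the vector. Its groups did not overlap, and it had the smallest p of the 6 (log2 fold change -0.90, SE 0.403, edgeR adjusted p = 0.784). B4galnt2, a glycosyltransferase gene on the strand opposite to Gm11534, had a log2 fold change of -0.15 (SE 0.328, edgeR adjusted p = 0.972), and 4833417C18Rik one of 0.23 (SE 0.291, edgeR adjusted p = 0.946). Gm11527, which was not tested, had at most 6 counts. None of the 50-base stretches of the Gngt2 transcripts occurs, read on the strand of the transcript, in a transcript of another gene.

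Most genes of the cone and rod machinery were at or near 0 in both groups. Of 25 photoreceptor genes, 8 had 0 counts in all 6 libraries and 4 passed the filter on low counts. The partners of Gngt2 in cones had 14 counts or fewer in every library, where 3 counts correspond to 0.170 to 0.203 CPM. Gnat2, the cone alpha subunit, had 6, 5 and 12 counts with NR4A1 and 9, 14 and 11 with the vector. Gnb3, the cone beta subunit, had 4, 2 and 4 counts against 9, 9 and 4. Arr3, the cone arrestin, and Opn1mw, an opsin, had 0 counts in every library, and Pde6c, the cone phosphodiesterase, had 2 counts in a single library. No photoreceptor gene was called by edgeR, DESeq2, limma-voom or limma on log2(FPKM + 1), and 0 of the 4 tested ones had an unadjusted p under 0.05. The fit on FPKM took only genes with a group mean of at least 1 FPKM, so Gnat2 and Pde6g, which edgeR tested, could not be called there. The smallest p in edgeR's test belonged to Cngb1, a cyclic nucleotide-gated channel subunit (log2 fold change 0.17, SE 0.124, edgeR adjusted p = 0.890), and the highest FPKM to Guca1a, a guanylyl cyclase activator. Cngb1 was well above 0 in every library, with 213, 213 and 261 counts with NR4A1 and 216, 192 and 240 with the vector. Gngt2 is also known from white blood cells. Of 8 leukocyte markers, Cd14 (70 to 131 counts) and Cd68 (27 to 53 counts) passed the filter on low counts and overlapped between the groups, with log2 fold changes of 0.02 (SE 0.270, edgeR adjusted p = 0.994) and -0.18 (SE 0.323, edgeR adjusted p = 0.966). Ptprc, the pan-leukocyte marker, had at most 1 count in any library, and Tyrobp had 0. Csf1r, which was not tested, had 4, 21 and 4 counts with NR4A1 and 1, 2 and 3 with the vector. Its groups did not overlap, and its high value belonged to NR4A1 overexpression replicate 2. Lyz2 had 20 counts in that replicate, 12 in vector control 1 and at most 1 elsewhere. Adgre1 and Itgam had at most 5 counts per entry in any library. The summed level of these markers was 7.44 to 9.65 CPM in the NR4A1 libraries and 6.97 to 10.3 CPM in the vector controls.

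The gamma subunits Gng12, Gng5 and Gng7 overlapped between the groups. Gng12 (chromosome 6, 66896397 to 67021350, plus strand), the leading one, had 153, 146 and 133 CPM with NR4A1 and 143, 127 and 130 CPM with the vector. Gng5 (chromosome 3, 146499807 to 146505572, plus strand) had 44.3, 47.4 and 48.8 CPM against 43.6, 52.0 and 42.8 CPM. Gng7 (chromosome 10, 80948624 to 81014945, minus strand), best known from striatal neurons, had 13.5, 12.5 and 13.0 CPM against 11.7, 14.3 and 14.1 CPM. None of these 3 had its NR4A1 libraries apart from its controls. Their log2 fold changes were 0.11 (SE 0.0833) for Gng12, 0.02 (SE 0.102) for Gng5 and -0.04 (SE 0.122) for Gng7.

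Gng10 (chromosome 4, 59035088 to 59041903, plus strand) had 21.6, 26.6 and 21.8 CPM with NR4A1 and 22.6, 26.1 and 19.6 CPM with the vector, and its log2 fold change was 0.04 (SE 0.137). Its level is uncertain, because 71.5% of its 50-base stretches also occur in Gm20503, a gene on the same strand that overlaps it. Gm20503 had 132, 116 and 100 counts against 114, 130 and 131 counts. Counted together, both genes had a log2 fold change of 0.02 (SE 0.116).

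The beta subunits also overlapped between the groups. Gnb1 (chromosome 4, 155491361 to 155559269, plus strand) had 392, 481 and 454 CPM with NR4A1 and 452, 475 and 479 CPM with the vector, a log2 fold change of -0.08 (SE 0.0916). Gnb2 (chromosome 5, 137528127 to 137533510, minus strand) had 140, 168 and 169 CPM against 158, 225 and 172 CPM, a log2 fold change of -0.22 (SE 0.146). The high value of Gnb2 belonged to vector control 2, and without that library the log2 fold change was -0.05. The coefficient of variation of Gnb2 in the vector controls was 19.0%, against 1.77% from counting alone, and that of Gnb1 was 3.12%, against 1.11%. With NR4A1 they were 10.4% and 10.3%, against 1.96% and 1.17%. Across the 6 tested members other than Gngt2, the log2 fold changes lay between -0.22 and 0.11, inside the range of -0.31 to 0.55 that holds the middle of all tested genes from the 5th to the 95th percentile. Over the 7 tested members the median log2 fold change was 0.02, and over all tested genes it was 0.01.

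**Figure D3:**
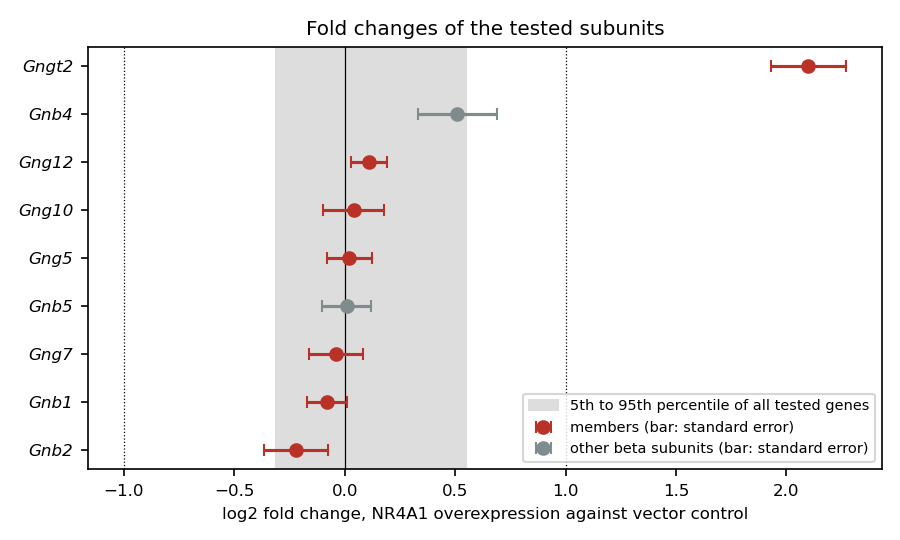
Log2 fold changes of the 9 tested beta and gamma subunits, NR4A1 overexpression against vector control, with standard errors as bars, members in red and other beta subunits in grey, over a grey band from the 5th to the 95th percentile of all 12941 tested genes and dotted lines at a 2-fold change. Gngt2 at 2.10 lies outside the band and beyond the dotted line, and the other 8 subunits lie between -0.22 and 0.51.

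The filter on low counts removed 3 members, Gng2, Gng4 and Gng11, so they have no fitted fold change. Gng2 (chromosome 14, 19872559 to 19977627, minus strand), a gamma subunit of brain and blood cells, had 75 counts in NR4A1 overexpression replicate 2 and 0 counts in the other 5 libraries. Gng11 (chromosome 6, 4003904 to 4008445, plus strand), the farnesylated subunit of many non-neuronal tissues, had 39 counts in that replicate, 3 in vector control 1, 1 in vector control 3 and 0 in the remaining 3 libraries. Gng4 (chromosome 13, 13784059 to 13827897, plus strand), mainly a neuronal subunit, had 2 counts in replicate 2 and 0 elsewhere, which is under the limit of 3 counts. All 3 were thus highest in the library that stood apart, and Gngt2 was not confined to it. In the same library the summed level of 8 endothelial markers was 150 CPM, against 8.72 to 11 CPM in the other 5, with 7 of the 8 highest there. Vwf, with the smallest p of these (edgeR adjusted p = 0.644), was at 15.1 CPM against 0.637 to 2.31 CPM, and Tek, with the highest FPKM in the controls, was lowest in that library, at 5.30 CPM. Cdh5, Kdr and Tie1 were at 0 in those 5 libraries. The sum over 6 smooth muscle markers was 324 CPM against 1.49 to 2.95 CPM, with 6 of 6 highest there. Acta2, smooth muscle actin, had 3841 counts there and 3 to 15 elsewhere. Of 8 fibroblast markers 6 were highest in that library. Among them Col1a1, a collagen, was at 250 CPM against 4.85 to 17.5 CPM, and Col1a2 at 268 CPM against 0.566 to 16.4 CPM. Dcn, a proteoglycan gene, was at 878 CPM there and at 905 to 1030 CPM in the other 5, so that the sum over the 8 was 1560 CPM against 918 to 1040 CPM. Vector control 1, where Gng11 had its 3 counts, stood above the other controls in Col1a2, with 284 counts against 14 and 10. The part of these markers in the counts of Gng2 and Gng11 was not tested.

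**Figure D4:**
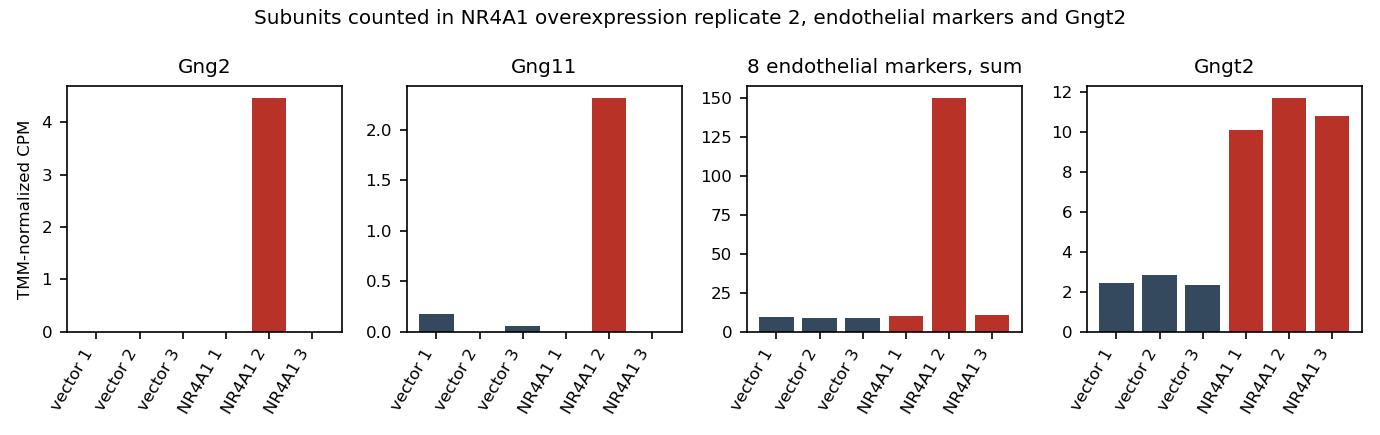
TMM-normalized CPM per library of Gng2, Gng11, the sum of 8 endothelial markers and Gngt2, vector controls in dark blue and NR4A1 overexpression in red, each axis starting at 0. Gng2 (4.47 CPM), Gng11 (2.32 CPM) and the endothelial sum (150 CPM) stand out in NR4A1 overexpression replicate 2, whereas Gngt2 is at 10.1 to 11.7 CPM in all 3 NR4A1 libraries.

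The make-up of the gamma pool was described by the share of each subunit in the summed FPKM of the 12 gamma subunits. Gngt2 made up 1.94%, 2.10% and 2% of it in vector controls 1, 2 and 3, and 7.51%, 7.49% and 8.03% in NR4A1 overexpression replicates 1, 2 and 3. The group means were 2.01% ± 0.0808 and 7.68% ± 0.306 (SD, n = 3 each), and the groups did not overlap. Per merged exon length the same shares were 2% ± 0.129 and 7.61% ± 0.350. Without correction for length, Gngt2 held 1.16% ± 0.110 and 4.52% ± 0.311 of the gamma counts. On the merged exon scale Gngt2 thus stood below Gng7 in the vector controls, where Gng7 held 5.25% ± 0.652, and above it with NR4A1, where Gng7 held 4.53% ± 0.452. Gng12, Gng10 and Gng5 together remained the bulk of the pool on this scale, where Gng12 held 41.9% ± 3.56 and 40.1% ± 3.20 in the vector and NR4A1 groups. Gng11 and Gng2 took 3.08% and 1.24% of the pool in NR4A1 overexpression replicate 2, also per merged exon length.
In the beta pool Gnb1 held 64.6% ± 3.50 with the vector and 66.1% ± 0.802 with NR4A1, on the merged exon scale. The sum of the 5 beta subunits was 170 ± 13.1 CPM per kb in the vector controls and 157 ± 15.5 CPM per kb with NR4A1. That of the 12 gamma subunits was 67.5 ± 3.77 and 76.1 ± 5.26 CPM per kb. These sums rest on the same members and carry no test.

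**Figure D5:**
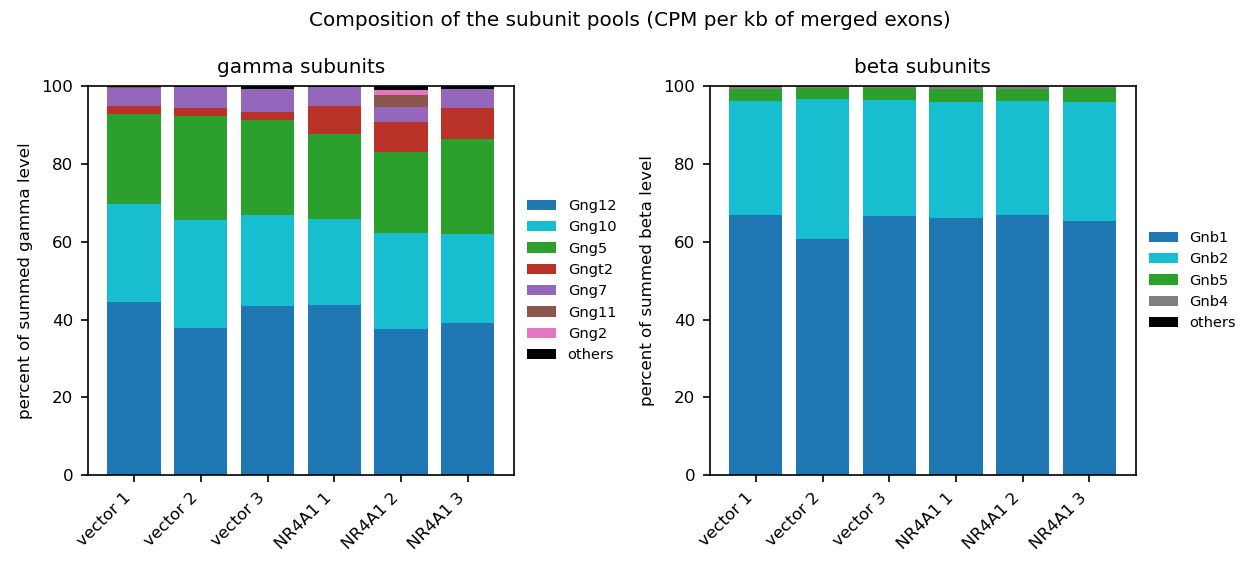
Share of each subunit in the summed level of the gamma subunits (left) and the beta subunits (right) in each library, in percent of CPM per kilobase of merged exons. The red band of Gngt2 spans 1.91 to 2.15% in the vector controls and 7.26 to 7.96% with NR4A1, and the beta pool is mostly Gnb1 and Gnb2 in all 6 libraries.

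The other 7 beta and gamma subunits of mouse were not members, and 2 of them passed the filter. None was called by edgeR, DESeq2 or limma-voom. Gnb4, a beta subunit, had 169, 238 and 198 counts with NR4A1 and 172, 152 and 123 counts with the vector, with a log2 fold change of 0.51 (SE 0.178, edgeR unadjusted p = 0.0231 and adjusted p = 0.666). It was the 1 gene of this list with an unadjusted p under 0.05, and after scaling its groups did not overlap. Gnb5, the divergent beta subunit that pairs with RGS proteins of the R7 class instead of a gamma subunit, had 221, 270 and 321 counts against 275, 279 and 292, with a log2 fold change of 0.01 (SE 0.111, edgeR adjusted p = 0.990). Gngt1, the rod gamma subunit, had 0 counts in all 6 libraries and its neighbour Gng11 was counted in replicate 2. Gnb3, Gng3, Gng8 and Gng13 had at most 9 counts in any library.

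The partners of the beta-gamma dimer were described by lists of alpha subunits, of folding and lipid-modifying proteins, of effectors, of receptor kinases and arrestins, and of RGS proteins. Of the 53 tested genes of these 5 lists, 0 were called by edgeR's quasi-likelihood test, DESeq2, limma-voom or limma on log2(FPKM + 1). The fit on FPKM took only genes with a group mean of at least 1 FPKM, so Rgs7, among others, could not be called there. In edgeR's test 5 of the 53 had an unadjusted p under 0.05, beside 836 of all 12941 tested genes (6.46%). Among the alpha subunits, 11 of 16 were tested and 0 had an unadjusted p under 0.05. Gnai3, an inhibitory alpha subunit, had the highest FPKM (69.9 in the vector controls), though per kb of merged exons it was at 69.5 CPM and Gnai2, another inhibitory alpha subunit, at 83.3 CPM. Gnai3 had a log2 fold change of 0.03 (SE 0.0748, edgeR adjusted p = 0.974). Gna11, which activates phospholipase C beta, had the smallest p of that list (log2 fold change -0.15, SE 0.0810, edgeR adjusted p = 0.829).

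Of 19 folding and lipid-modifying genes, 18 were in the table and 16 were tested, with 0 at an unadjusted p under 0.05. Cct2, a subunit of the chaperonin that folds beta subunits, had the highest FPKM (227 in the vector controls), though per kb of merged exons it was at 173 CPM and Cct5, another subunit of it, at 199 CPM. Cct2 had a log2 fold change of 0.03 (SE 0.0780, edgeR adjusted p = 0.973). Fntb, the beta subunit of the farnesyltransferase that modifies the serine class of gamma subunits, had 294, 444 and 437 counts with NR4A1 and 550, 436 and 506 counts with the vector (log2 fold change -0.27, SE 0.133, edgeR adjusted p = 0.810). Pggt1b, the beta subunit of the enzyme that adds geranylgeranyl groups to the leucine class, had a log2 fold change of 0.19 (SE 0.205, edgeR adjusted p = 0.927) and is named beside Fntb after its value was seen. Both enzymes were thus counted in all libraries, and neither passed the test.

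Of 25 effectors, 11 were tested and 2 had an unadjusted p under 0.05. The list was built largely by gene family, and whether the dimer acts on each product was not tested. Plcb4, a phospholipase C, had 589, 586 and 628 counts with NR4A1 and 467, 362 and 507 counts with the vector, a log2 fold change of 0.52 (SE 0.122, edgeR adjusted p = 0.313). The other of the 2 was Adcy6, an adenylyl cyclase (log2 fold change 0.23, SE 0.0806, edgeR adjusted p = 0.666). Plcb3, the effector with the highest FPKM, had a log2 fold change of -0.19 (SE 0.104, edgeR adjusted p = 0.829). Adcy3, also tested, had 123 counts in NR4A1 overexpression replicate 2 and 30 to 43 elsewhere. Among effectors removed by the filter, Adcy4 had 84 counts in that replicate and 0 elsewhere. Prex2 had 63 there and at most 5 elsewhere, and 4 effectors had 0 counts in all 6 libraries. Of 8 receptor kinases and arrestins, 6 were tested and Grk5, a receptor kinase, had the smallest p, with 97, 243 and 104 counts against 98, 70 and 83 (log2 fold change 0.89, SE 0.359, edgeR adjusted p = 0.740). Its high value belonged to NR4A1 overexpression replicate 2. Grk6 had the highest FPKM of that list and a log2 fold change of -0.01 (SE 0.0670, edgeR adjusted p = 0.990).

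Of 20 RGS proteins, which speed up the shut-off of alpha subunits, 9 were tested and 2 had an unadjusted p under 0.05. Rgs7, an R7-class member that binds Gnb5, had 21, 24 and 19 counts with NR4A1 and 4, 6 and 5 counts with the vector. Every NR4A1 library was above every control, with a log2 fold change of 2.15 (SE 0.334, edgeR adjusted p = 0.0742), which missed the threshold. The other of the 2 was Rgs2, with 226, 259 and 275 counts against 158, 229 and 143 (log2 fold change 0.59, SE 0.200, edgeR adjusted p = 0.660). Rgs10 had the highest FPKM of the list, 15.8 in the vector controls, and a log2 fold change of 0.05 (SE 0.0910, edgeR adjusted p = 0.970). Rgs16, which was not tested, had 55 counts in NR4A1 overexpression replicate 2 and 0 elsewhere.

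The genes with the pattern most like that of Gngt2 were found by the distance between log2 CPM values over the 6 libraries, each gene centred on its own mean. In order of distance they were Krt13, a keratin, at 0.372, Rgs7 at 0.472, Car12, a membrane carbonic anhydrase, at 0.479, Cd55, a complement regulator, at 0.519, and Eno3, the muscle enolase, at 0.577. The nearest, Krt13, had 79, 109 and 88 counts with NR4A1 and 17, 19 and 20 with the vector. Pearson's r with Gngt2 lay between 0.983 and 0.995 for these 5 genes, and since all points share the 6 libraries and the split between the groups, it is a description without a test.

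NR4A1 binds as a monomer to the element AAAGGTCA. Promoters from RefSeq (GRCm38.p6), which cover 250 bases before to 50 bases after a start site, were found for 8 of the 10 members, Gnb1, Gnb2, Gng2, Gng4, Gng5, Gng7, Gng10 and Gng12, with 11 promoters in all. The element or its reverse complement TGACCTTT was in 0 of the 11, and in 495 of all 32851 promoters (1.51%). At that share most sets of 11 promoters would hold 0, and variants of the element were not searched, so nothing is read from this. Gngt2 and Gng11 have no entry.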

How the data were processed

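RNA was sequenced from 6 MLE-12 libraries, 3 per group, grouped by the treatment in the labels. The authors deposited 1 table with a read count and an FPKM per gene and library, and the submitters' processing notes name HISAT2 2.0.4 and GRCm38.p4. The counting program and its strand setting are not given in the sources used here. The deposited FPKM was scaled by the total count of the library and a length per gene that lay within 5% of the merged exon length of GENCODE M21 for 16.2% of 13065 genes.

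From the counts, edgeR 4.0.16 (R 4.3.3) gave TMM factors, the default low-count filter (filterByExpr) and a quasi-likelihood test with Benjamini-Hochberg adjustment over 12941 genes. Standard errors came from the fold change and F. DESeq2 1.42.0, limma 3.58.1 (voom, and log2 of FPKM plus a pseudocount of 1 or 0.1), other scalings and filters, a replicate block and leaving out each library were alternatives. The fits on FPKM took the 11137 genes with a mean of at least 1 FPKM in either group. On simulated counts with 200 genes changed 3-fold, edgeR recovered 166 with 11 false calls. No pair of replicates agreed within counting error (chi-square per degree of freedom 9.82 to 44.6). Members and gene lists were chosen with earlier results of these data known. Named genes are all beta and gamma subunits, the smallest p and highest FPKM of each list, genes within 50 kb of Gngt2 and the 5 nearest to it in pattern. Other cone genes and cell type markers, Gnai2, Cct5, Adcy3, Adcy4, Adcy6, Prex2, Rgs2 and Rgs16 were named after their values were seen. The limit of 3 counts covers counting error only, whereas the SD and SE also take in the spread between libraries.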

Additional observations from a re-analysis of the deposited data

How the results depend on the processing

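The number of genes called (22) was 65 with DESeq2, 8 with a mean of at least 10 counts as the filter, 7 with limma on log2(FPKM + 1), 8 with limma on log2(FPKM + 0.1), 5 with the replicate block and 161 with an unadjusted p. With each library left out it lay between 3 and 28. The number of members called (1) was 0 with the replicate block and between 0 and 1 with each library left out, and it stayed at 1, Gngt2, under the other alternatives. The labels do not say whether same-numbered libraries were handled together. The correlations of their deviations were -0.011, -0.046 and 0.246, and without a reference value they do not settle this. Among the lists, Rgs7 was past the threshold with an unadjusted p (1 gene in place of 0), and no other list count moved. The cause of these moves was not tested, beyond the smaller number of samples when a library is left out. The log2 fold change of Gngt2 stayed between 1.97 and 2.19, apart from 1.35 on log2(FPKM + 1), where the pseudocount shrinks low values. Of 113 member fold changes under alternatives, 111 moved by less than 1 standard error. Counting Gng10 with Gm20503 and the shares per merged exon length were added after the data were seen. Gng2, Gng4 and Gng11, which the filter on low counts removed, were tested without it and not called.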
